A study of Mus musculus with 6 samples.

Results

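The collagen genes of developing mouse palate are described here by type. Members were taken by symbol, as rows of the gene table named Col, a number, a and a number, which gave 44 genes of 49492. The family itself was chosen with earlier results of these data known. They were grouped from textbook knowledge of collagen types into 8 fibrillar, 7 cartilage, 10 basement membrane and 19 associated genes. Poly(A) RNA of palatal shelves, the paired outgrowths that form the roof of the mouth, was sequenced at E14.5 on a C57BL background. The 3 control libraries came from embryos labelled PRMT1 fl/fl, in which the arginine methyltransferase gene Prmt1 carries loxP sites, and the 3 deletion libraries from embryos labelled Wnt1-Cre; PRMT1 fl/fl. The floxed alleles are thus shared by both groups, and no library carried Cre without them. Wnt1-Cre acts in the neural crest, which gives rise to most palatal mesenchyme, while epithelium, endothelium and skeletal muscle have other origins. Controls are called A, B and C here, and deletion libraries D, E and F, by ascending number in the names of their columns. Whether each came from a separate embryo is not stated, so p-values measure only the spread between these libraries.

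Collagens are extracellular proteins of 3 chains wound around each other, and each chain has its own gene. Types I, III and V form the fibrils of mesenchyme, tendon and bone, types II, IX and XI those of cartilage, and type IV the sheet under epithelia and around vessels. Associated types sit on fibrils (XII, XIV, XVI), form microfibrils (VI) or span the cell membrane (XIII, XXIII, XXV). In the palate, fibrillar and associated collagens come mainly from the mesenchyme, and type I is also the main protein of bone, which begins to form in the palate at about this stage.

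Totals ranged from 44919889 to 50022829 estimated counts. Prmt1 was at 246 to 258 CPM (counts scaled to library size) in controls and 201 to 217 CPM in deletion libraries, and the palate genes Osr2, Shox2, Tbx22 and Pax9 were at 26.1 to 188 CPM over all libraries. Msx1, another palate gene, varied more within each group, at 51.7 to 178 CPM in controls and 61.1 to 188 CPM in deletion libraries. The libraries were thus not uniform in all palate genes. Controls A and B differed in sex from the other 4 libraries: Xist, the RNA that coats an inactive X, stood at 15.5 and 16.0 CPM in them and at 3384 to 4487 CPM in the rest. With sex as a covariate, these 2 libraries inform the sex term and the spread between libraries, and not the deletion effect. The fold change of that fit, given below where it matters, is therefore the deletion libraries against control C.

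The stretches upstream of 5 collagen genes are shown because they belong to genes on which the results turn: Col9a1, with the highest fold change of the 43 tested, Col6a6, the only associated gene called higher, the neighbours Col6a1 and Col6a2, which were called lower at nearly the same size, and Col7a1, called lower among basement membrane genes. They are RefSeq sequences of GRCm38.p6, read 5′ to 3′ on the gene's strand and limited to bases outside annotated exons. Capitals mark the GC box (GGGCGG) and the CCAAT box (CCAAT) on either strand. The TATA box (TATAAA) and the core SOX motif (ACAAT) were also searched on both strands and are absent from these 5 stretches; the SOX core and the CCAAT box share the letters CAAT and were counted separately.
Col9a1 (chr1:24177360-24177609, plus strand): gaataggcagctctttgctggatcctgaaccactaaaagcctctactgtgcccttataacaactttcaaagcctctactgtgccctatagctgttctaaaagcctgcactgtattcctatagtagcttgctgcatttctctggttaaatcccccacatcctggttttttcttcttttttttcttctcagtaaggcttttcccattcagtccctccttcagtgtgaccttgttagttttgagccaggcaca
Col6a6 (chr9:105828161-105828335, minus strand): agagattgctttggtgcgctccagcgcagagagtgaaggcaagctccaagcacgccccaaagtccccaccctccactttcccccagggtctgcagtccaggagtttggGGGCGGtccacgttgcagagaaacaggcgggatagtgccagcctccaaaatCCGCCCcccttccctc
Col6a1 (chr10:76726169-76726294, minus strand): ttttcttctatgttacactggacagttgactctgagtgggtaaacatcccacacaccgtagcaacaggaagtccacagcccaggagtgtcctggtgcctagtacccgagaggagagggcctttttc
Col6a2 (chr10:76623631-76623880, minus strand): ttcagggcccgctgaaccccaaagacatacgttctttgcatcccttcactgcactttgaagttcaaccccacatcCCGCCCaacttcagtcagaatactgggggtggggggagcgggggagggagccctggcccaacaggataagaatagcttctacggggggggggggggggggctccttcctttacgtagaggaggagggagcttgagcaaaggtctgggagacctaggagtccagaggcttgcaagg
Col7a1 (chr9:108953336-108953585, plus strand): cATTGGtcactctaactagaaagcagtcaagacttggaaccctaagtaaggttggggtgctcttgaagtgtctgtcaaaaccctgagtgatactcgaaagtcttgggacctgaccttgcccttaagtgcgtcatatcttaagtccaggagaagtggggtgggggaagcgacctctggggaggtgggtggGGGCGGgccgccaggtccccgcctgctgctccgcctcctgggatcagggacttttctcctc

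The RefSeq table held a start for 35 of the 44 genes, and it held none for Col1a1, Col2a1, Col4a3, Col5a2, Col9a3, Col12a1, Col14a1, Col22a1 and Col26a1. In the 250 bases before the start, a GC box was found in 21 of the 35 collagen windows and in 32.7% of all 32817 windows, and the median GC content was 59.2% and 52.4%. The SOX core was found in 2 of the 35 (5.71%) and in 27.7% of all windows. A CCAAT box was found in 34.3% of collagen and 33.8% of all windows, and a TATA box in 14.3% and 12.4%. The Col9a1 window, at 43.6% GC, held none of the 4 motifs. These matches describe letters only.

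The level of the 44 genes spanned a wide range. Levels of different genes are compared as CPM per kilobase of annotated exon. Exon lengths join the exons of all annotated transcripts, at 12426 bases for Col1a2 and 6563 for Col1a1, so ranks depend on them. By mean control CPM, Col1a2 (3323) stood above Col3a1 (3062), and Col6a2 (608) above Col6a1 (531). In controls Col1a1 was the highest at 621 CPM per kb, followed by Col3a1 at 312 and Col1a2 at 267 CPM per kb. The microfibril chain Col6a1 led the associated genes at 121, Col4a1 the basement membrane genes at 70.6 and Col9a2 the cartilage genes at 33.3 CPM per kb. At 20 CPM per kb or more there were 20 genes, and 9 were under 1 CPM per kb in controls. Col10a1, the collagen of hypertrophic cartilage, was at 0.044 to 0.139 CPM and was the only member not tested, since it fell below the filter on low counts. Together the 44 genes held 1.74% to 2.03% of counts in controls and 1.51% to 1.65% in deletion libraries, so the groups did not overlap. Col1a1, Col1a2 and Col3a1 made up 54.6% ± 2.7 of collagen counts in controls and 51.3% ± 1.2 in deletion libraries (SD, n = 3).

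**Figure D1:**
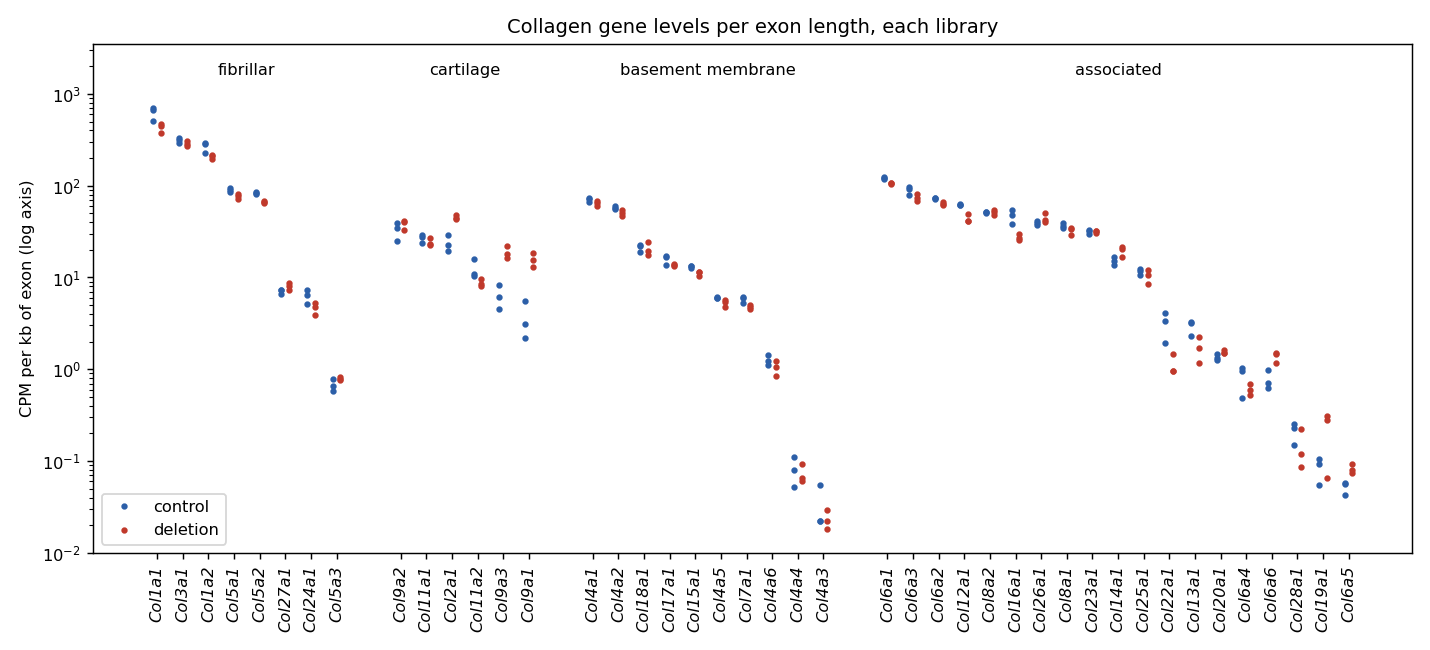
Level of the 43 tested collagen genes in each library, as CPM per kilobase of annotated exon on a log axis, ordered within each class by the control mean. Blue points are the 3 control and red points the 3 deletion libraries; Col9a1, Col9a3 and Col2a1 stand higher in red, and Col22a1 and Col16a1 lower.

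Of the 43 collagen genes tested, 3 rose and 8 fell in the deletion libraries (quasi-likelihood test of edgeR, p adjusted by Benjamini-Hochberg over all genes tested, threshold 0.05). Over all 19284 genes tested, 3.65% were called higher and 3.37% lower, 7.01% in all. The risers were Col2a1, Col9a3 and Col6a6, and the fallers were Col1a2, Col5a2, Col7a1, Col15a1, Col6a1, Col6a2, Col12a1 and Col16a1. Of the 8 fallers, 7 changed by less than 1.5-fold. Groups did not overlap in 6 members that were higher and 15 that were lower, against 14.1% and 13.5% of all genes tested, 27.5% in all. At an unadjusted p under 0.05, in either direction, there were 26 of the 43 collagen genes and 4344 of all 19284 genes. The latter is the background for counts at an unadjusted p from this fit. The calls rested on single libraries to a large extent. The 11 collagen calls became 1 without control B (Col12a1), 2 without deletion D (Col5a2 and Col12a1) and 4 without deletion E. With sex as a covariate there were 2 (Col2a1 and Col9a3). Without control A or C there were again 11, of which 7 and 8 were among the first 11, and without deletion F there were 14. Over all genes, the 1352 calls became 356 without control B, 545 without deletion D and 711 without deletion E.

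By class, the median log2 fold change (deletion minus control) was -0.28 for fibrillar, 0.56 for cartilage, -0.21 for basement membrane and -0.18 for associated genes, beside -0.000135 for all genes tested. Fibrillar genes had 2 called lower of 8, cartilage genes 2 called higher of 6, basement membrane genes 2 called lower of 10, and associated genes 4 called lower and 1 higher of 19. No fibrillar gene was called higher, no cartilage gene lower and no basement membrane gene higher by edgeR, and 0 were by DESeq2 or limma voom. At an unadjusted p under 0.05 these 3 counts were 1, 1 and 0 in edgeR. All 10 basement membrane genes had fold changes below 0, as did 6 of 8 fibrillar, 12 of 19 associated and 2 of 6 cartilage genes. The class medians are descriptions, and no test compared the classes. In bulk tissue, fewer cells of a type and less RNA per cell cannot be told apart. With sex as a covariate the medians were -0.17 for fibrillar, 0.91 for cartilage, -0.14 for basement membrane and -0.03 for associated genes.

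**Figure D2:**
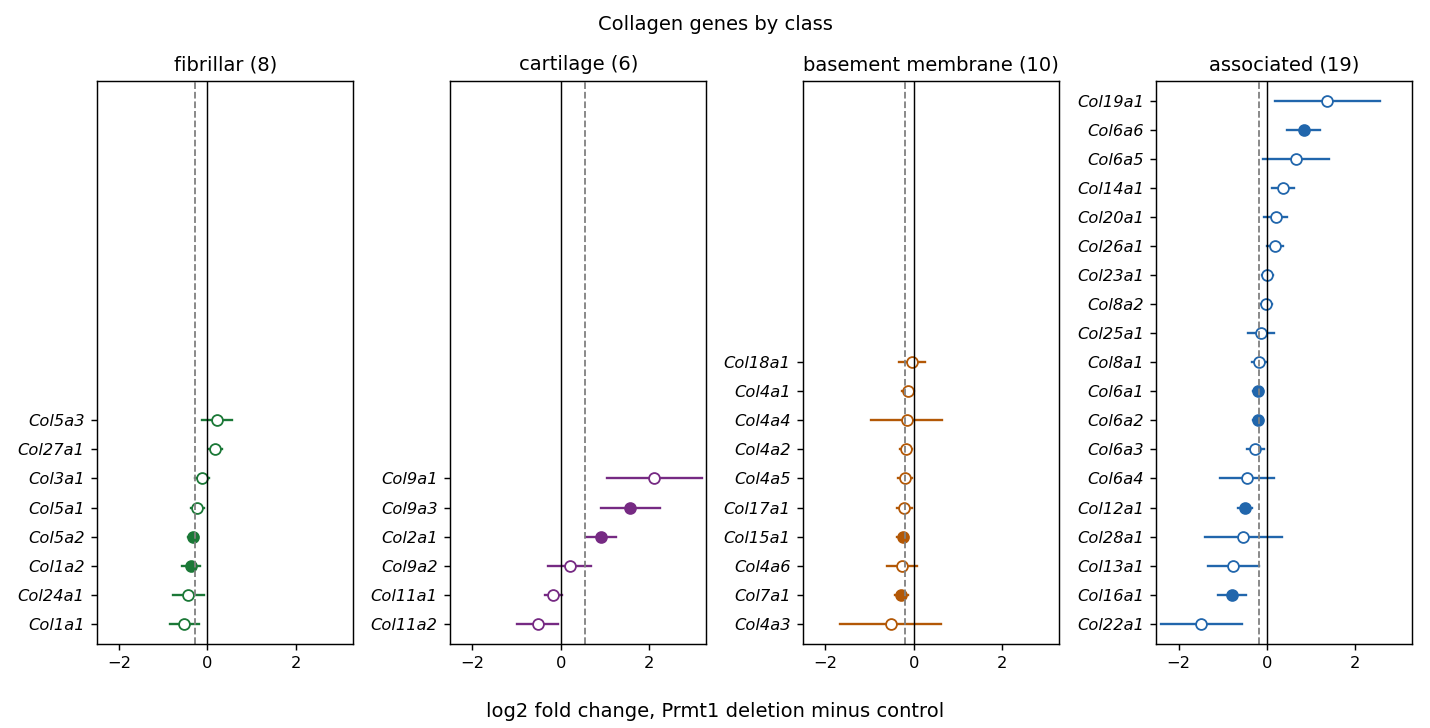
Log2 fold change (deletion minus control) of each tested collagen gene with its 95% interval, in 4 panels by class with the number tested in brackets. Filled points passed at adjusted p under 0.05 and dashed lines are class medians; the cartilage panel has its median at 0.56 and the other 3 panels have medians from -0.28 to -0.18.

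Type I collagen, a trimer of alpha-1 and alpha-2 chains, had lower levels of both chains in every deletion library, and its alpha-2 gene passed in edgeR while its alpha-1 gene did not. Col1a1 (chromosome 11, 94936224 to 94953042, mm10, plus strand) was at 4349, 4589 and 3295 CPM in controls A, B and C and at 2450, 2941 and 3080 CPM in deletion libraries D, E and F. All 3 deletion libraries lay below every control, and control C lay nearer to them than to the other controls. The means were 4078 ± 688 and 2824 ± 331 CPM (SD, n = 3 here and below). The log2 fold change was -0.53 ± 0.14 (with its SE; adjusted p = 0.0713 in edgeR). Col1a2 (chromosome 6, 4504814 to 4541544, plus strand) was at 3521, 3628 and 2819 CPM in controls against 2429, 2716 and 2607 CPM in deletion libraries. The groups again did not overlap and control C was again the lowest control. Its log2 fold change was -0.36 ± 0.09 (edgeR adjusted p = 0.0417). The tools differed on these 2 genes: DESeq2 called both (adjusted p = 0.0223 for Col1a1 and 0.000921 for Col1a2), and limma voom called Col1a1 and not Col1a2 (adjusted p = 0.0409 and 0.0516). Against control C, as the sex covariate compares them, the log2 fold changes were -0.22 for Col1a1 and -0.13 for Col1a2 (edgeR adjusted p = 0.43 and 0.507). Without control C both passed, at -0.66 and -0.47 (edgeR adjusted p = 0.00407 and 0.00205).

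The other fibrillar genes moved less or differently. Col5a2, the alpha-2 chain of type V collagen, which regulates fibril width, was at 779, 828 and 800 CPM in controls against 623, 653 and 644 CPM in deletion libraries. Its groups were far apart relative to their spread, and the log2 fold change was -0.33 ± 0.05 (edgeR adjusted p = 0.00577). With sex as a covariate the value was -0.32 and did not pass (edgeR adjusted p = 0.0873). Col5a1, its partner chain, was at 725 to 812 CPM in controls against 604 to 694 CPM in deletion libraries (log2 fold change -0.23, adjusted p = 0.0637 in edgeR and 0.0107 in DESeq2). Col3a1, the second fibril collagen of soft mesenchyme, lies 24615 bases from Col5a2 on chromosome 1 in the opposite orientation. It overlapped between the groups, at 2863 to 3222 CPM and 2639 to 3035 CPM (log2 fold change -0.12, 95% interval -0.27 to 0.03). Col24a1 had a log2 fold change of -0.44, and Col27a1 and Col5a3 had values above 0, at 0.17 and 0.22. None of these 3 passed in edgeR and their groups overlapped, and DESeq2 called Col24a1 lower (adjusted p = 0.011).

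Cartilage collagens moved apart from each other: Col2a1 and Col9a3 rose, and the other 4 tested genes did not pass in edgeR. Of the 6 fits that each left out 1 library, edgeR called Col2a1 in 3 and Col9a3 in 2. Without a filter on low counts neither passed (edgeR adjusted p = 0.0663 and 0.0642). Col2a1, the single chain of type II collagen and the main fibril protein of cartilage (chromosome 15, 97975602 to 98004695, minus strand), was at 272, 209 and 181 CPM in controls against 441, 405 and 412 CPM in deletion libraries. Every deletion library lay well above every control. It rose 1.90-fold, from 220.7 ± 46.4 to 419.2 ± 19.0 CPM (log2 fold change 0.93 ± 0.14, edgeR adjusted p = 0.0141). Col9a3, a chain of the type IX collagen that coats type II fibrils (chromosome 2, 180597790 to 180622189, plus strand), was at 32.1, 23.4 and 17.4 CPM in controls against 85.3, 69.6 and 63.3 CPM in deletion libraries. It rose 2.99-fold (log2 fold change 1.58 ± 0.26, edgeR adjusted p = 0.0321). Col9a1, the partner chain, had the largest fold change and did not pass in edgeR: it was at 27.8, 15.6 and 11.2 CPM in controls against 94.8, 78.6 and 65.9 CPM in deletion libraries. Its log2 fold change was 2.13 ± 0.40 (edgeR adjusted p = 0.0591), and DESeq2 and limma voom called it (adjusted p = 1.66e-05 and 0.00313). In all 3 genes control C was the lowest control, so the differences were larger with sex as a covariate, at 1.21 for Col2a1, 2.06 for Col9a3 and 2.83 for Col9a1 (edgeR adjusted p = 0.0137, 0.0492 and 0.149).

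The remaining cartilage genes did not pass in edgeR, DESeq2 or limma voom. Col9a2, the third chain of type IX, was at 123, 108 and 77.6 CPM in controls against 124, 129 and 102 CPM in deletion libraries, so the groups overlapped (log2 fold change 0.20, 95% interval -0.29 to 0.70). Its value was 0.61 with sex as a covariate, without passing (edgeR adjusted p = 0.104), and 0.036 without control C. Col11a1 and Col11a2 encode type XI chains, which in cartilage form the core of type II fibrils, and Col11a1 is also made outside cartilage. Col11a1 was at 301 to 374 CPM in controls against 289 to 340 CPM in deletion libraries (log2 fold change -0.16, edgeR adjusted p = 0.33). Col11a2 was at 71.1 to 110 CPM in controls, and all deletion libraries lay below these, at 55.3 to 65.6 CPM (log2 fold change -0.52, edgeR adjusted p = 0.184). Both moved upward with sex as a covariate, to 0.03 for Col11a1 and -0.25 for Col11a2.

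Lists of cartilage and bone markers differed between the groups in opposite directions. These lists and all lists below were chosen with earlier results of these data known. Their counts, set beside the share of all genes, are therefore descriptions only. In a list of 16 chondrocyte genes other than collagens, 8 rose and 0 fell by edgeR (0 fell by DESeq2 and by limma voom as well, and 0 had an unadjusted p under 0.05 downward), against 3.65% of all genes tested called higher. Their summed level was 227 to 286 CPM in controls against 370 to 444 CPM in deletion libraries. Matn1, the cartilage matrix protein matrilin-1, was at 0.489 ± 0.198 CPM in controls against 29.5 ± 5.8 CPM in deletion libraries. In a list of 13 osteoblast genes, 11 were tested and 2 fell by edgeR (Mepe and Ifitm5), beside 3.37% of all genes tested called lower. In edgeR 10 were lower and 0 higher at an unadjusted p under 0.05, beside 4344 of all 19284 genes in either direction. DESeq2 called 9 lower and limma voom 6, while over all genes, in either direction, they called 2125 and 1171 against 1352 by edgeR. The summed level of the 13 genes was 1193 to 1649 CPM in controls against 411 to 643 CPM in deletion libraries. The late osteoblast genes Bglap and Bglap2 were too low to test. The part of these cell types in the collagen values was not tested.

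**Figure D3:**
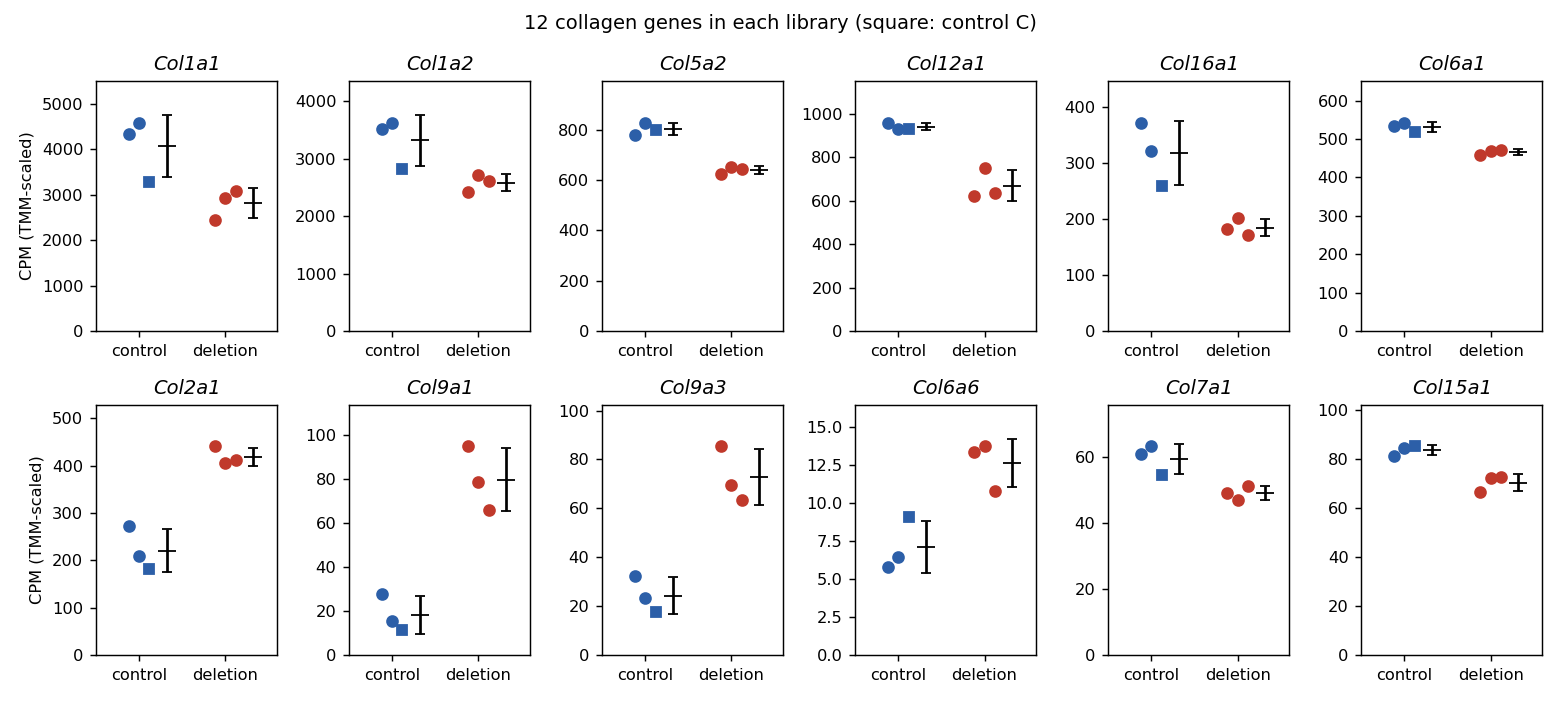
CPM (TMM-scaled, axes from 0) of 12 collagen genes in each library, blue for control and red for deletion, with mean and SD of 3 libraries in black and control C as a square. The groups overlap in none of the 12; control C is the control nearest to the deletion libraries in Col1a1, Col1a2, Col16a1, Col6a6 and Col7a1, among others, and the farthest in Col2a1, Col9a1 and Col9a3.

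Of the basement membrane genes Col15a1 and Col7a1 fell, each by less than 1.5-fold. Col15a1, which encodes a collagen that links basement membranes to the fibrils beneath, was at 81.5, 84.6 and 85.3 CPM in controls against 66.5, 72.2 and 72.8 CPM in deletion libraries. Each group was tight and the groups did not overlap (log2 fold change -0.25 ± 0.05, edgeR adjusted p = 0.0202). Col7a1, the anchoring fibril collagen made by epithelium, was at 60.8, 63.1 and 54.4 CPM in controls against 49.0, 47.0 and 51.0 CPM in deletion libraries (log2 fold change -0.28 ± 0.07, edgeR adjusted p = 0.0327). Col17a1, the hemidesmosome collagen of basal epithelial cells, was at 103, 101 and 82.97 CPM in controls against 79.8, 84.6 and 82.6 CPM in deletion libraries. Control C lay among the deletion libraries for this gene, and the log2 fold change of -0.22 (edgeR adjusted p = 0.123) was -0.01 with sex as a covariate. For Col7a1 it was -0.15 and for Col15a1 -0.27 with that covariate (edgeR adjusted p = 0.442 and 0.152).

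The type IV chains of all basement membranes, Col4a1 and Col4a2, are known as partners in one trimer. Col4a1 was at 502, 551 and 529 CPM in controls against 450, 487 and 505 CPM in deletion libraries, with overlap. Col4a2 was at 368 to 396 CPM and 311 to 362 CPM, without overlap. Their log2 fold changes were close, at -0.13 and -0.17, and neither passed (edgeR adjusted p = 0.236 and 0.133). The 2 genes lie head to head on chromosome 8, with annotated starts that overlap. The X-linked pair Col4a5 and Col4a6, 1309 bases apart, had values of -0.20 and -0.27, and the pair Col4a3 and Col4a4, 72 bases apart, was at 0.180 to 1.17 CPM over all libraries. Col18a1, a collagen of vessel and epithelial basement membranes, overlapped between groups (log2 fold change -0.04, 95% interval -0.33 to 0.25).

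Epithelium and endothelium both lie on basement membranes, and markers of each were listed. Of 12 epithelial genes other than collagens, 7 fell and 0 rose by edgeR (0 rose by DESeq2 and by limma voom, and 0 had an unadjusted p under 0.05 upward), against 3.37% of all genes called lower. Their sum was 1580 to 1853 CPM in controls against 1020 to 1281 CPM in deletion libraries. Krt14, the basal keratin, was at 400.5 ± 27.2 and 225.0 ± 19.3 CPM, with the limit that keratin genes can share reads. Krt5, Trp63 and Krt15 of the same list, named after their values were seen, overlapped between groups and did not pass. Their log2 fold changes were -0.44, -0.09 and -0.26 (edgeR adjusted p = 0.593, 0.866 and 0.526). Of 9 endothelial genes, 0 passed in edgeR and limma voom and 1 was called lower by DESeq2. In edgeR 5 were lower and 1 higher at an unadjusted p under 0.05, beside 4344 of all 19284 genes in either direction. The 9 endothelial genes summed to 477 to 502 CPM in controls against 438 to 480 CPM in deletion libraries. The median log2 fold change was -0.45 for the epithelial and -0.13 for the endothelial list, and no test compared the lists. The part of these cell types in the values of the basement membrane genes was not tested.

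Associated collagens held 4 of the 8 falls and 1 of the 3 rises. Col12a1, a collagen on the surface of type I fibrils in dense mesenchyme, tendon and periosteum, was at 960, 933 and 932 CPM in controls against 624, 751 and 634 CPM in deletion libraries. The controls lay within a narrow band and all deletion libraries far below it (chromosome 9, 79598991 to 79718831, minus strand; log2 fold change -0.49 ± 0.07, edgeR adjusted p = 0.00363). It was the only collagen gene called with any 1 of the 6 libraries left out, at -0.58 to -0.44, and was -0.48 with sex as a covariate (edgeR adjusted p = 0.0782). Col16a1, a collagen of fibril and microfibril surfaces, was at 372, 322 and 259 CPM in controls against 181, 202 and 171 CPM in deletion libraries. It fell 1.72-fold, the largest fold among the 8 fallers (log2 fold change -0.78 ± 0.13, edgeR adjusted p = 0.0183), and the value was -0.49 with sex as a covariate (edgeR adjusted p = 0.0825). Col14a1, of the same fibril-surface family, had a fold change above 0 and did not pass in edgeR, at 96.8 to 117 CPM in controls against 116 to 152 CPM in deletion libraries (log2 fold change 0.37, adjusted p = 0.0839 in edgeR and 0.00415 in DESeq2).

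The type VI microfibril genes Col6a1 and Col6a2 fell by nearly the same amount. Col6a1 was at 533, 542 and 519 CPM in controls against 458, 469 and 471 CPM in deletion libraries, and Col6a2 at 600, 615 and 610 CPM and 511, 532 and 547 CPM. In both genes the groups were tight and apart, with log2 fold changes of -0.19 ± 0.05 and -0.20 ± 0.05 (edgeR adjusted p = 0.0482 and 0.0465). They lie 85162 bases apart on the minus strand of chromosome 10 (76708792 to 76726168 and 76595762 to 76623630). Both calls are close to the threshold, and each was lost without control A, B or C or deletion D or E. Col6a3, the third common chain, was at 940 to 1149 CPM in controls against 808 to 965 CPM in deletion libraries (log2 fold change -0.26, adjusted p = 0.101 in edgeR and 0.0249 in DESeq2).

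A second cluster of type VI genes, Col6a4, Col6a5 and Col6a6, lies on chromosome 9 with all 3 on the minus strand, and there the genes differed from each other. Col6a6 (105687809 to 105828160) was at 5.80, 6.45 and 9.08 CPM in controls against 13.4, 13.7 and 10.8 CPM in deletion libraries. All deletion libraries lay above every control, and it rose 1.78-fold (log2 fold change 0.83 ± 0.17, edgeR adjusted p = 0.0162). With sex as a covariate the value was 0.48 (edgeR adjusted p = 0.271), since control C was its highest control. Its neighbour Col6a5 was low, at 0.538, 0.527 and 0.400 CPM in controls against 0.704, 0.751 and 0.872 CPM in deletion libraries (log2 fold change 0.66, edgeR adjusted p = 0.282). Col6a4 overlapped between groups, at 4.11 to 8.90 and 4.46 to 5.97 CPM (log2 fold change -0.45).

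A pair of genes with low or moderate levels had wide differences that did not pass in edgeR. Col22a1, a collagen of muscle-tendon junctions and cartilage surfaces, was at 17.8, 38.2 and 30.8 CPM in controls against 8.79, 13.4 and 8.77 CPM in deletion libraries. The groups did not overlap but the controls were spread widely (log2 fold change -1.49 ± 0.35, edgeR adjusted p = 0.084). DESeq2 and limma voom called Col22a1 (adjusted p = 0.00113 and 0.0287). Col13a1, a membrane collagen of muscle endplates and other adhesion sites, was at 10.6, 14.7 and 14.9 CPM in controls against 5.37, 7.91 and 10.5 CPM in deletion libraries, so the highest deletion library lay just under the lowest control (log2 fold change -0.76 ± 0.25, edgeR adjusted p = 0.12). DESeq2 called Col13a1 (adjusted p = 0.00526) and limma voom did not (0.0708). Of 12 skeletal muscle markers, 7 rose and 0 fell by edgeR (0 fell by DESeq2 and limma voom, and 0 at an unadjusted p under 0.05), against 3.65% of all genes called higher, and their sum was 561 to 605 CPM in controls against 955 to 1599 CPM in deletion libraries. Tendon markers had 2 higher (Scx and Thbs4) and 2 lower (Fmod and Kera) of 6, against 3.65% and 3.37% of all genes, with a sum of 116 to 129 and 123 to 135 CPM. The part of these cell types in the values of Col22a1 and Col13a1 was not tested.

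The other associated genes did not pass. Col19a1 lies 9206 bases from Col9a1 in the opposite orientation, and was at 0.374 to 0.728 CPM in controls against 2.12, 1.95 and 0.446 CPM in deletion libraries, so library F lay among the controls (log2 fold change 1.37 ± 0.53, edgeR adjusted p = 0.164). Col8a2, Col23a1 and Col25a1 had log2 fold changes of -0.01, 0.01 and -0.14 with overlapping groups, and Col8a1, the partner chain of Col8a2, had -0.18. The 95% interval was -0.14 to 0.12 for Col8a2 and -0.11 to 0.13 for Col23a1, the narrowest of those near 0. Col26a1 was at 303 to 339 CPM in controls against 333 to 417 CPM in deletion libraries (log2 fold change 0.19). Col20a1 was at 6.44 to 7.53 and 7.65 to 8.39 CPM (0.20), and Col28a1, at 0.424 to 1.23 CPM over all libraries, had -0.53.

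Ratios between chains, taken per kilobase of exon, show which chains moved together. Their size depends on the exon lengths used, while the comparison between groups does not. The ratio of Col6a1 to Col6a2 was 1.66 ± 0.038 in controls and 1.67 ± 0.034 in deletion libraries. That of Col4a1 to Col4a2 was 1.23 ± 0.045 and 1.27 ± 0.025. Col1a1 to Col1a2 was 2.34, 2.39 and 2.21 in controls and 1.91, 2.05 and 2.24 in deletion libraries, with overlap. These 3 pairs thus kept overlapping ratios. In type IX collagen, Col9a2 to Col9a3 was 4.76, 5.77 and 5.56 in controls and 1.81, 2.30 and 2.01 in deletion libraries. Col9a1 to Col9a3 was 0.658, 0.508 and 0.491 in controls and 0.845, 0.858 and 0.791 in deletion libraries. The groups did not overlap in either ratio, nor in type XI collagen, where Col11a1 to Col11a2 was 2.21 ± 0.35 in controls and 2.77 ± 0.10 in deletion libraries. They overlapped for Col5a1 to Col5a2, Col4a5 to Col4a6, Col6a3 to Col6a1 and Col8a1 to Col8a2. Between types, Col2a1 to Col1a1 went from 0.0386 ± 0.0060 to 0.107 ± 0.018, also without overlap. The same held for Col3a1 to Col1a1 (0.509 to 0.671) and Col2a1 to Col11a1 (0.885 to 1.89). The ratios are descriptions and were not tested.

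**Figure D4:**
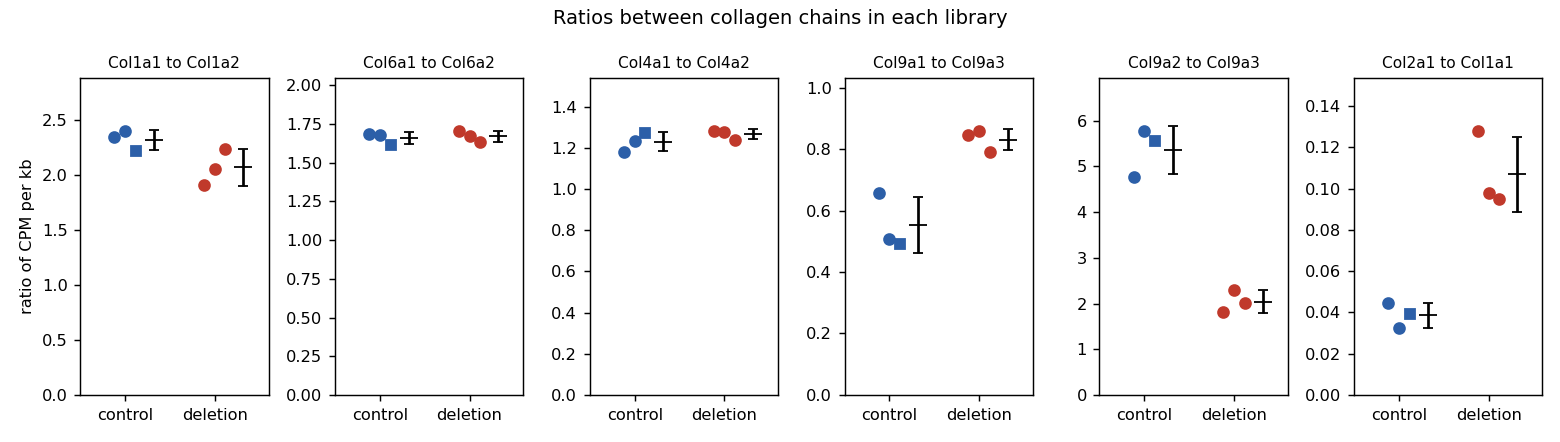
Ratios between 6 pairs of collagen chains in each library, from CPM per kilobase of exon, on axes from 0, with mean and SD of 3 libraries in black and control C as a square. The first 3 pairs overlap between control (blue) and deletion (red), and the last 3 do not.

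Enzymes that make and crosslink collagen fell more often than they rose. Of 33 genes in a list of hydroxylases, chaperones, processing proteases and crosslinking enzymes, 10 fell and 1 rose by edgeR. Over all genes tested, 3.37% were called lower and 3.65% higher. DESeq2 called 14 of the 33 lower and 1 higher, and limma voom 8 lower and 1 higher. The median log2 fold change of the list was -0.20. The 4 of smallest p were Lox, Loxl1, Loxl4 and Adamts2. Lox, the lysyl oxidase that starts collagen crosslinks, was at 391.0 ± 24.6 CPM in controls against 248.4 ± 6.2 CPM in deletion libraries (log2 fold change -0.65, edgeR adjusted p = 0.000304). Its relative Loxl1 was at 118.8 ± 6.6 and 75.1 ± 5.7 CPM (-0.66, edgeR adjusted p = 0.000457). Loxl4, of the same family, was at 9.38 CPM in controls against 2.56 CPM in deletion libraries, on average (log2 fold change -1.87, edgeR adjusted p = 0.000645). Adamts2, the protease that trims the amino end of fibrillar procollagens, was at 97.2 and 71.6 CPM (-0.44, edgeR adjusted p = 0.00111). The riser was Loxl3, also of that family, at 34.0 and 43.9 CPM (0.37, edgeR adjusted p = 0.0187), and it is named after its value was seen. The collagen chaperone Serpinh1, also named after its value was seen, did not pass, at -0.14.

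The position of control C differed by class. Among the 43 tested genes it was the lowest control in 25 and the highest in 8, and in all 6 tested cartilage genes and 5 of 8 fibrillar genes it was the lowest. All 3 deletion libraries lay below control C in 20 of the 43 genes and above it in 12. These positions were not counted over all genes tested, so they describe the collagen genes without a background. With sex as a covariate, 38 of 43 genes kept the sign of their fold change, and Col11a1, Col4a3, Col6a4, Col8a2 and Col23a1, none of them called, did not. In that fit 2 collagen genes were called higher and 0 lower by edgeR, with 6 higher and 10 lower at an unadjusted p under 0.05. Over all genes 129 were called in that fit, and those at an unadjusted p under 0.05 were not counted. Sex and any other difference between control C and the other controls cannot be told apart. Of the 44 genes, 18 are overlapped by a gene on the opposite strand, among them the called genes Col9a3, Col12a1, Col15a1 and Col6a6, and whether counting used strand is not given in the sources used here.

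**Figure D5:**
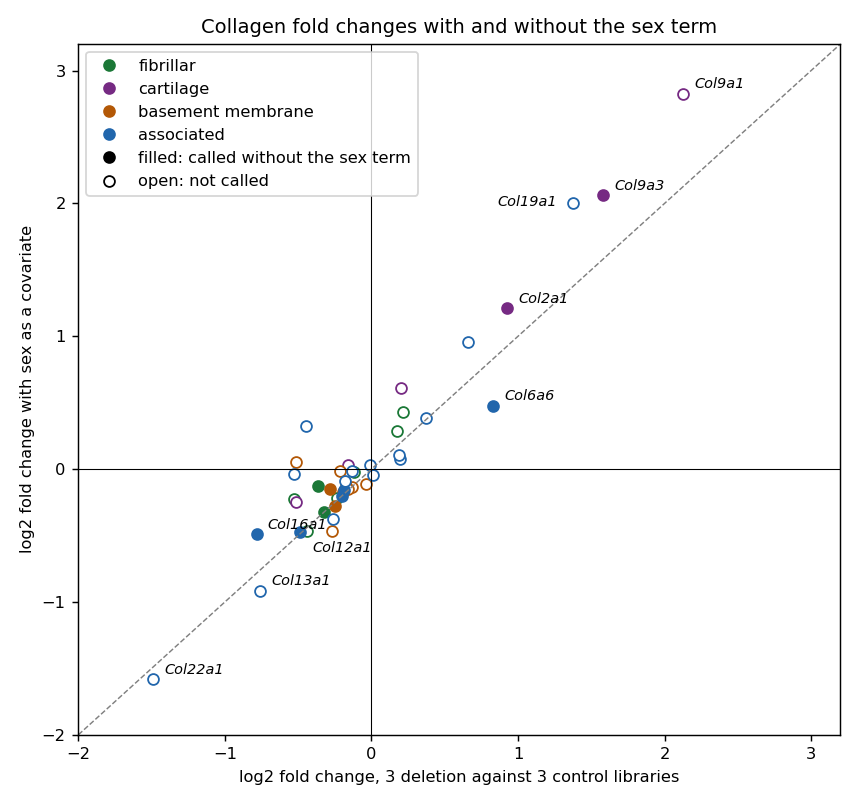
Log2 fold change of the 43 tested collagen genes in the comparison of 3 against 3 libraries (x axis) and with sex as a covariate (y axis), coloured by class, with a dashed line of equal values. Col9a1, Col9a3 and Col2a1 lie above the line, Col12a1 and Col22a1 lie close to it, and Col16a1 and Col6a6 lie nearer to 0 with the covariate.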

How the data were processed

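The deposited gene table holds estimated counts for 6 libraries, which the authors made with CASAVA 1.8.2, STAR 2.4.1d and Partek on mm10, per the submitters' processing notes. Of its values, 23.0% to 23.8% per library were not whole, so the deposited expected counts were rounded. Group names in the column headings gave each column's group. The collagen genes and all lists were chosen with earlier results of these data known. Genes passed edgeR's filterByExpr (minimum count 10, minimum total 15), libraries were TMM-scaled, and edgeR 4.0.16 (R 4.3.3) fitted a robust quasi-likelihood model to the 6 libraries without covariates. Calls used a Benjamini-Hochberg adjusted p under 0.05 over 19284 genes, and the script was tested on simulated data. Exon lengths came from GENCODE annotation of mm10. Full values are given for collagen genes past the threshold, for the most abundant of each class, and for those with separate groups and a fold of 1.5 or more, and at most 4 genes of smallest p are named from other lists, beside those said to be named after their values were seen. Replicate libraries differed by more than sampling noise. Alternatives were DESeq2 1.42.0, limma 3.58.1 voom, other scaling and filters, sex as a covariate, and left-out libraries.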

Additional observations from a re-analysis of the deposited data

How the results depend on the processing

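None of the 11 called collagen genes changed direction under the 13 alternatives. Over these, 61 calls of single collagen genes were lost and 28 were gained. DESeq2 called 2125 genes in all in place of 1352, with 5 collagen genes higher and 14 lower in place of 3 and 8. Without a filter on low counts 1 collagen gene was called higher. With sex as a covariate 129 genes were called in all, and with controls A and B left out 89; both settings called 0 collagen genes lower by edgeR, with 10 at an unadjusted p under 0.05. In these 2 settings the class medians (log2) were -0.17 and -0.17 for fibrillar, 0.91 and 0.91 for cartilage and -0.034 and -0.034 for associated genes. Both compare the deletion libraries with control C alone, so they are 1 comparison and not 2 separate checks. Why control C differed from controls A and B was not tested. Leaving out each library in turn gave 356 to 1872 genes called in all, 0 to 4 collagen genes higher and 1 to 10 lower, with medians of -0.30 to -0.24 for fibrillar, 0.42 to 0.73 for cartilage, -0.25 to -0.13 for basement membrane (-0.13 without deletion D) and -0.20 to -0.10 for associated genes. The lowest count in all, 356, was without control B, and the 0 higher were without control B (7 at an unadjusted p under 0.05) or deletion D (6). For the alternatives, genes at an unadjusted p under 0.05 were not counted over the whole table. Without deletion F 4 collagen genes were called higher, and Col2a1 and Col9a3 were not among them. No paired analysis was possible because the numbers in the column names are in no label, so the columns carry no replicate numbers. The genes under 1 CPM, such as Col4a3 and Col6a5, rest on few counts and have wide intervals.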
